A study of Mus musculus with 32 samples.

Results

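Hypoxia-ischemia (HI) at postnatal day 5 (P5) was examined 6 h after the insult, in injured hemispheres set against those of naive littermates. The comparison rests on the 3 two-color arrays whose labels name HI, day 5 and 6 h, out of 24 HI arrays and 32 arrays in all. The other HI arrays hold the same comparison at P5 after 3, 12 and 24 h and at P10, and the remaining arrays hold untreated pools of P2 and P15. NMRI mice were used throughout. In the HI pups the right carotid artery was ligated for good, and after 1 h with the dam they breathed 8% oxygen for 40 min. Naive pups came from the same litters, were taken at the same time and had neither ligation nor hypoxia, so surgery, anesthesia, ligation and hypoxia changed together. The tissue was the forebrain hemisphere without the olfactory bulb, cut in front of the colliculi. Each channel of an array held pooled RNA of 6 animals, with HI RNA in Cy5 and naive RNA in Cy3 on every HI array, so that no dye swap separates dye from HI in these groups. Pools hide the spread between pups. The p-values of the main fit rest on the spread between arrays of the same age and time, estimated over all 24 HI arrays and not over these 3 alone.

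Neonatal HI is a common cause of lasting brain injury in newborns. Loss of oxygen and glucose stops energy supply, glutamate and calcium rise, and surviving cells switch on immediate early genes, heat shock and other stress programs within hours. Microglia, the resident immune cells of the brain, astrocytes and vessels then release chemokines and cytokines that call in blood leukocytes. In forebrain tissue a lower ratio can come from fewer cells of a type or from less RNA per cell, and these cannot be told apart.

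All values are log2 ratios of the processed HI signal over the processed naive signal on 1 array, so 1 is a doubling and 0 is no difference. Testing was limited to probes with a mean signal of 100 or more in Cy3 or Cy5, which left 18667 probes of 15437 genes. A call needs an adjusted p under 0.05 by limma with Benjamini-Hochberg correction together with a change of over 1.5-fold, and a single probe that meets both calls its gene. With these limits 418 genes rose (2.71% of those tested) and 183 fell (1.19%), so 3.89% were called. The reference names 343 of the induced and 144 of the repressed genes. Inductions reached further than repressions, since 169 genes rose over 2-fold, 38 over 4-fold and 8 over 8-fold, whereas 8 genes fell over 2-fold. The median fold was 1.87 among induced and 1.60 among repressed genes (the latter as naive over HI). No gene had probes called in opposite directions.

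The 3 arrays correlated with each other at 0.723 (arrays 1 and 2), 0.628 (2 and 3) and 0.638 (1 and 3) over tested probes, and the median SD of a probe between them was 0.135. Per the methods, pools were matched for sex, and array 1 departs from that description in sex-linked genes. Its ratios were 1.32 for Xist, -1.29 for Ddx3y and -1.70 for Eif2s3y, whereas arrays 2 and 3 lay between -0.01 and 0.41 in these genes, and the part of this array's pools in the results was not tested beyond leaving it out. Without array 1 the model called 330 genes higher and 213 lower, without array 2 it called 293 and 125, and without array 3 it called 362 and 173. Hemoglobin and pituitary transcripts also moved between HI and naive pools, with values given below, and their part in the results was not tested.

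The 12 named genes with the highest means were taken among called genes that moved 1 way on all 3 arrays. They comprised the chemokines Cxcl10, Ccl4, Ccl2, Ccl7 and Ccl12, the transcription factors Phox2a, Fos, Atf3 and Maff, the receptors Fas and Tnfrsf12a, and Gdf15. Ccl3, with a mean of 3.00, lacked a usable spot on array 1 and is given below. Cxcl10, which attracts T cells, stood at 6.36, 5.31 and 5.44 on the 3 arrays. Its HI signals of 431, 535 and 209 faced naive signals of 5.23, 13.5 and 4.82, none of them well above background, so that Cxcl10 was at least 25.7-fold higher after HI (adjusted p = 2.85e-06). Gdf15, a stress-induced cytokine of the TGF-beta family, stood at 5.38, 3.85 and 3.40 and was at least 10.6-fold higher (adjusted p = 6.01e-06). Phox2a, a homeobox factor of noradrenergic neurons, stood at 4.33, 6.20 and 5.09 and was at least 9.67-fold higher (adjusted p = 2.05e-07). Naive signals of Gdf15 and Phox2a were not well above background either, and all 3 genes lay far from 0 on each array. Without array 2 Phox2a lay under the signal limit and was not tested. The fold changes of these genes are lower bounds, taken against the dimmest probes well above background.

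**Figure D1:**
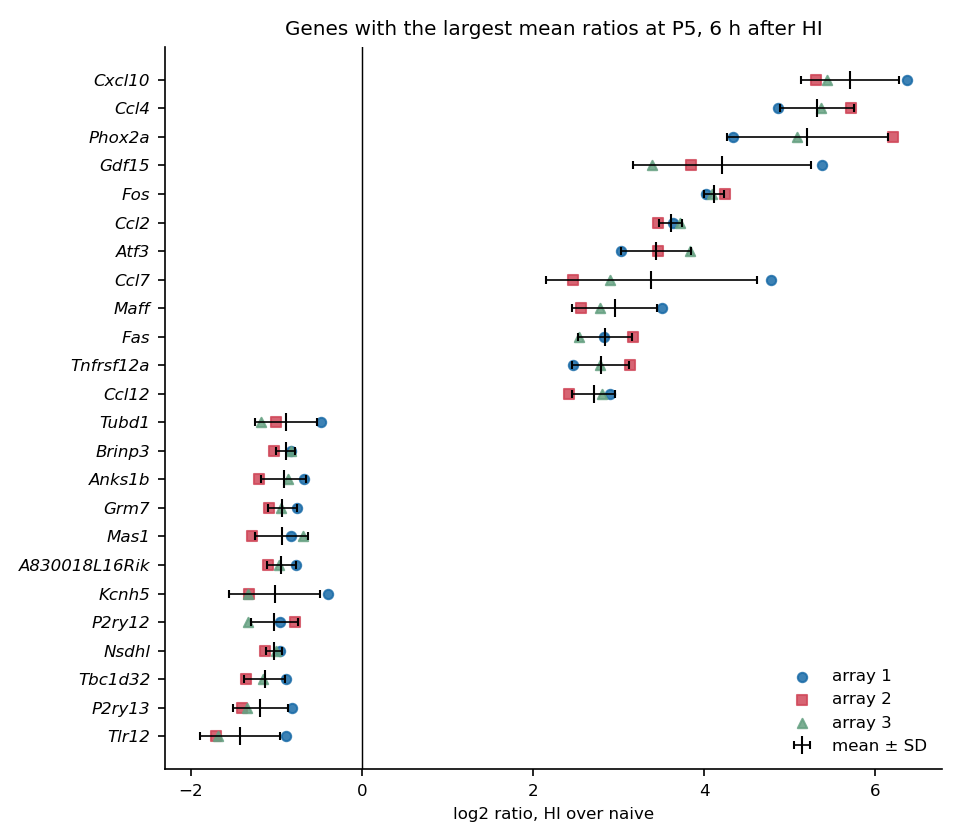
Log2 ratio of HI over naive signal on each of the 3 P5 arrays at 6 h (circle, square and triangle) for the 12 named genes with the highest and the 12 with the lowest mean among called genes that moved 1 way on each array; bars give the mean ± SD. The induced genes lie between 2.42 and 6.36 on single arrays and the repressed genes between -1.70 and -0.40, so inductions span a wider range.

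Chemokines recruit leukocytes along a gradient. Of 30 listed chemokines, 16 passed the signal limit, and 9 of these rose and none fell (2.71% of all genes rose). Their median log2 ratio was 1.18, beside -0.02 over all tested genes. A chemokine whose naive signal is low passes the limit only where it is high after HI, so the members that passed do not stand for the list. The same limit was used for every list below. Ccl4, which attracts macrophages, stood at 4.86, 5.72 and 5.36, a 39.8-fold induction (5.31 ± 0.43, SD, n = 3, adjusted p = 5.98e-08). Ccl2, which draws monocytes through CCR2, stood at 3.64, 3.46 and 3.72, and was 12.2-fold higher (3.61 ± 0.13, adjusted p = 5.98e-08). Ccl7, another CCR2 ligand, stood at 4.78, 2.46 and 2.90 (10.4-fold, adjusted p = 0.000458), against naive signals of 5.66, 28.1 and 40.7, which were well above background on 2 of the 3 arrays. Ccl3 had a usable spot on arrays 2 and 3 only, at 2.96 and 3.04, and its adjusted p was 3.92e-07. Ccl12 stood at 2.90, 2.42 and 2.80 (6.53-fold, adjusted p = 0.000408), and Ccl9, Ccl6 and Ccl17 rose less, with means of 1.97, 1.45 and 0.92. Cx3cl1 and Cxcl14 lay at 0.10 and -0.11 and were not called. Among the alternatives the count of induced chemokines ranged from 7 to 10. This range and those of later lists leave out the methods' t-test after Benjamini-Hochberg adjustment, which called 2 genes higher and 0 lower in all. None of the 4 measured chemokine receptors was called, with means from -0.02 for Ackr1 to 0.32 for Ackr3.

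The Cxcl10 promoter is shown because its gene had the highest mean ratio of all named genes. RefSeq (GRCm38.p6) gives this sequence, from 250 bases before the transcription start to 30 after it, with capitals on matches to the interferon-stimulated response element and to NF-kB sites.
Cxcl10, chr5:92348860-92349139, minus strand: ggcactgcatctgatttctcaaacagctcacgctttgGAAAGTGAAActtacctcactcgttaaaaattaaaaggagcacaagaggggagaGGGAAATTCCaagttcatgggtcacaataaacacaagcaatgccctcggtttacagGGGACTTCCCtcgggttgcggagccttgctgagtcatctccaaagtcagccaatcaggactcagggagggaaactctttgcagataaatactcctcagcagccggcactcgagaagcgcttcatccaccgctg
The interferon element begins 213 bases before the start, and NF-kB sites begin 159 and 103 bases before it. NF-kB matches were present in 2 of 6 induced chemokines with a promoter in the reference, Cxcl10 and Ccl9, and in 4.51% of 32851 promoters. A match describes letters and shows no binding.

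Immediate early genes are switched on by calcium and kinase signals without new protein synthesis. Of 29 listed members 23 were measured, 13 rose (2.71% of all genes did) and none fell, with a median of 0.81. Fos, a subunit of the AP-1 factor, stood at 4.02, 4.24 and 4.09, with HI signals of 863, 1965 and 678 against naive signals of 53.7, 104 and 40.0. Fos was thus 17.3-fold higher (4.11 ± 0.11, adjusted p = 1.87e-08), with little spread between arrays. Atf3, a stress-induced ATF/CREB factor, stood at 3.03, 3.45 and 3.84 (10.8-fold, adjusted p = 3.69e-07). Maff, a small MAF protein, stood at 3.51, 2.56 and 2.78, and Fosb, another AP-1 subunit, at 2.40, 2.94 and 2.14 (adjusted p = 2.85e-06 and 2.59e-06). Ier3 and the nuclear receptor Nr4a1 rose 3.86-fold and 2.61-fold. Jun, Klf4, Egr1, Egr2, Jund, Klf10 and Arc were called with smaller means, from 1.36 for Jun to 0.61 for Arc. Myc, Klf6 and Fosl2 lay at -0.08, -0.09 and -0.11 and were not called. The count of induced members ranged from 10 to 14 over the alternatives. Among MAP kinase feedback genes 3 of 11 rose (2.71% of all genes did). They were the phosphatases Dusp1 (1.48, 1.20 and 0.75) and Dusp14 (0.68, 1.14 and 0.70) and the EGF receptor inhibitor Errfi1 (0.80, 0.65 and 0.55). A CArG box, the site of serum response factor, was found in 1 of 10 induced immediate early genes with a promoter in the reference (Egr2) and in 1.63% of all promoters. The cAMP response element TGACGTCA was likewise found in 1 of these 10 genes (Maff) and in 1.79% of all promoters.

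Cytokines act through receptors whose signal SOCS proteins shut off. Of 18 measured receptors and SOCS genes 7 rose (2.71% of all genes did) and none fell. Of 10 measured cytokine ligands Csf1 was the one called. With no signal filter 4 of 24 ligands were called higher, and with probes well above background 3 of 14. Tnfrsf12a, the TWEAK receptor, stood at 2.46, 3.13 and 2.78 (6.92-fold, adjusted p = 5.98e-08). Osmr, the oncostatin M receptor, stood at 1.54, 1.51 and 1.67 (2.98-fold, adjusted p = 0.000328). Socs3, an inhibitor of JAK-STAT signalling, stood at 1.32, 1.42 and 1.33 (2.57-fold, adjusted p = 2.84e-05). Osmr and Socs3 varied little between arrays beside the size of their means. Csf2rb, Il6ra, Tnfrsf1a and Stat3 rose with means of 1.17, 1.11, 1.09 and 0.71. Csf1, a growth factor of microglia, stood at 0.95, 1.099 and 1.06 (2.05-fold, adjusted p = 0.000257). Il1b, Il6, Tnf, Lif and Osm did not reach the signal limit in either channel. Among NF-kB targets 3 of 15 were called higher (2.71% of all genes were). Cd14, the lipopolysaccharide co-receptor, stood at 2.33, 3.03 and 2.31 (5.89-fold, adjusted p = 2.84e-05), and Tlr2 at 1.51, 1.41 and 0.98 (adjusted p = 0.00308). Bcl3, a nuclear IkB protein, stood at 2.36, 2.04 and 2.10 (adjusted p = 0.00826), and lost its call without array 1 (2.07, adjusted p = 0.0609). The feedback inhibitors Nfkbia and Tnfaip3 lay at 0.61 and 0.38 and were not called (adjusted p = 0.0704 and 0.107).

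Heat shock proteins refold or hold damaged proteins. Of 19 measured members 4 rose (2.71% of all genes did) and none fell, and the count was 4 or 5 under the alternatives. Hspa1a, the inducible HSP70, stood at 2.93, 1.80 and 2.90, a 5.83-fold induction (2.54 ± 0.64, adjusted p = 0.000564). The small heat shock protein Hspb1 stood at 1.94, 1.80 and 1.87 (3.66-fold, adjusted p = 9.41e-06). Its partner Hspb8 stood at 1.18, 1.74 and 1.04, and the HSP70 co-chaperone Bag3 at 1.16, 1.43 and 1.49 (2.50-fold and 2.57-fold, adjusted p = 0.000118 and 0.000668). Hspb1 was the most even of them over the arrays. Hsp90aa1, Hspd1 and Dnajb1 had means of 0.16, 0.25 and 0.23 and were not called, so the calls lay in the inducible HSP70, its co-chaperone and small heat shock proteins.

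Promoters of 3 of these genes are printed because all 4 induced members held a heat shock element, written here as GAANNTTC or TTCNNGAA, each its own reverse complement. Capitals mark the element.
Hspa1a, chr17:34972127-34972406, minus strand: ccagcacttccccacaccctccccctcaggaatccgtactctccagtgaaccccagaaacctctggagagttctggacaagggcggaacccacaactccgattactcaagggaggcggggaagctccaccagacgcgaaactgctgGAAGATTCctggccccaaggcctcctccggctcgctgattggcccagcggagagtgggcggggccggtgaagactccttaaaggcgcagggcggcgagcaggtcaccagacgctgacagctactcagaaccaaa
Hspb1, chr5:135887669-135887948, plus strand: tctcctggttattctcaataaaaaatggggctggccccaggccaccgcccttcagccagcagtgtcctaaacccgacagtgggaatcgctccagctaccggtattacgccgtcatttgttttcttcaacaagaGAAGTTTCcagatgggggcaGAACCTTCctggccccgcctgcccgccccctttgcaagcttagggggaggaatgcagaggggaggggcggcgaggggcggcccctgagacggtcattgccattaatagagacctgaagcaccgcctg
Hspb8, chr5:116422835-116423114, minus strand: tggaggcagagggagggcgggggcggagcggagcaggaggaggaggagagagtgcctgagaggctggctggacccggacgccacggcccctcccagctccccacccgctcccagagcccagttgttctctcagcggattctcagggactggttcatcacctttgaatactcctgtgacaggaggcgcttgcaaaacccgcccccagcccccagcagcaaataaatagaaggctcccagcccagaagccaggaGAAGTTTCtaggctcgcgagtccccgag
The element begins 104 bases before the start in Hspa1a, 117 and 97 bases before it in Hspb1 and 3 bases past it in Hspb8, and Bag3 holds it further inside the transcript. It was present in 10 of 14 measured heat shock genes with a promoter in the reference and in 15.1% of all promoters. Members that were not called, such as Dnaja1 and Hspd1, held it too.

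Cells under stress slow protein synthesis by phosphorylating eIF2, and ATF4 then drives a set of stress genes. Of 30 measured genes of the unfolded protein and integrated stress response 5 rose (2.71% of all genes did) and none fell. Ppp1r15a, the phosphatase subunit that reverses eIF2 phosphorylation, stood at 1.14, 1.51 and 1.00 (2.32-fold, adjusted p = 3.13e-06). Atf4 stood at 0.65, 0.80 and 0.85 (1.70-fold, adjusted p = 1.26e-05), and after subtraction of the dye bias it fell under the fold limit with 0.54. Its targets Trib3 and Chac1 had means of 0.97 and 0.60 (adjusted p = 0.0337 and 0.00393). Trib3 lost its call without any 1 array, with adjusted p between 0.112 and 0.153, and Chac1 lost it without array 1 (0.58, under the fold limit) or array 2 (0.53, adjusted p = 0.0548). Sesn2 rested on array 2 (0.37, 1.05 and 0.36) and without it stood at 0.37 with an adjusted p of 0.0657. The chaperone Hspa5, a target of the ATF6 branch, lay at 0.56 and passed the p but not the fold limit, and Xbp1, Calr and Pdia4 lay between -0.13 and -0.02. The promoters of Trib3 and Chac1 are shown because they hold the CEBP-ATF response element (TGATGNAA on either strand, in capitals), found in 3.97% of all promoters.
Trib3, chr2:152344031-152344310, minus strand: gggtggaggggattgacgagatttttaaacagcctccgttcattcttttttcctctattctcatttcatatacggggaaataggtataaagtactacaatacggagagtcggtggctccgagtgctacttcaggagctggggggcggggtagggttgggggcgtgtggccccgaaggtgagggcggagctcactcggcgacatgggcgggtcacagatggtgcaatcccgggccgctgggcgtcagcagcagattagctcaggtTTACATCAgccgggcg
Chac1, chr2:119350992-119351271, plus strand: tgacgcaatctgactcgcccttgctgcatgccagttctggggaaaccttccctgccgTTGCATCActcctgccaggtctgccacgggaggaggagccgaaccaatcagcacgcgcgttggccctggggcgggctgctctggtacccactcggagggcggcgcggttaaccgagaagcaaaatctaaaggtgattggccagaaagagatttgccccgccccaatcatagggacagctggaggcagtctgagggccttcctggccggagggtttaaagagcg
The element begins 15 bases past the start in Trib3 and 193 bases before it in Chac1, and 2 of the 5 induced genes held it.

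HIF-1 drives vessel growth, glucose uptake and glycolysis under low oxygen. Of 26 measured HIF-1 targets 7 rose (2.71% of all genes did) and none fell, with a range of 3 to 7 over the alternatives. Adm, a vasodilator peptide, stood at 2.49, 1.83 and 1.61 (3.94-fold, adjusted p = 6.89e-05). Slc2a1, the glucose transporter of the blood-brain barrier, stood at 1.19, 1.23 and 1.46 (2.45-fold, adjusted p = 0.000261), and Vegfa at 0.76, 1.20 and 0.94 (1.96-fold, adjusted p = 0.00101). All 3 genes were higher after HI on each array. Angptl4 rose with a mean of 0.83, while Plin2 (0.80, adjusted p = 0.0499) lost its call without any 1 array and Bhlhe40 (0.63) without array 1 or 2 (adjusted p = 0.0619 and 0.101). The lactate transporter gene Slc16a3, the remaining member, was called on a probe other than the one with its largest mean. Bnip3, Pdk1 and P4ha1 lay between -0.15 and 0.03 and were not called. Of 16 measured glycolytic enzymes none rose and Pfkp fell (-0.79, -0.35 and -1.02, adjusted p = 0.0138). Pfkp was called on 1 of 2 probes, its brightest probe lay at 0.08, and the call was lost without array 1 or 3 (adjusted p = 0.0854 and 0.132). Ldha, Pgk1 and Pkm lay at 0.19, 0.12 and 0.12. A hypoxia response element (GCGTG or ACGTG) was present in all 5 induced HIF-1 targets with a promoter in the reference, though Vegfa also had a promoter without it. The element was present in 19 of 21 measured targets with a promoter, called or not, and in 43.8% of all promoters.

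Among NRF2 targets and metallothioneins 3 of 15 rose (2.71% of all genes did). Mt2 stood at 2.22, 1.96 and 1.82 and Mt1 at 1.94, 1.40 and 1.59, both metal-binding proteins (4.01-fold and 3.12-fold, adjusted p = 3.47e-05 and 7.97e-05). Hmox1, which breaks down heme, stood at 1.42, 1.59 and 1.28 (2.69-fold, adjusted p = 0.000188). The NRF2 targets Gclc, Gclm and Txnrd1 lay at -0.05, 0.09 and -0.17 and were not called. The promoters of Mt1 and Mt2 both held a metal response element (TGCGCNC or TGCACNC), as did 25.7% of all promoters.

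**Figure D2:**
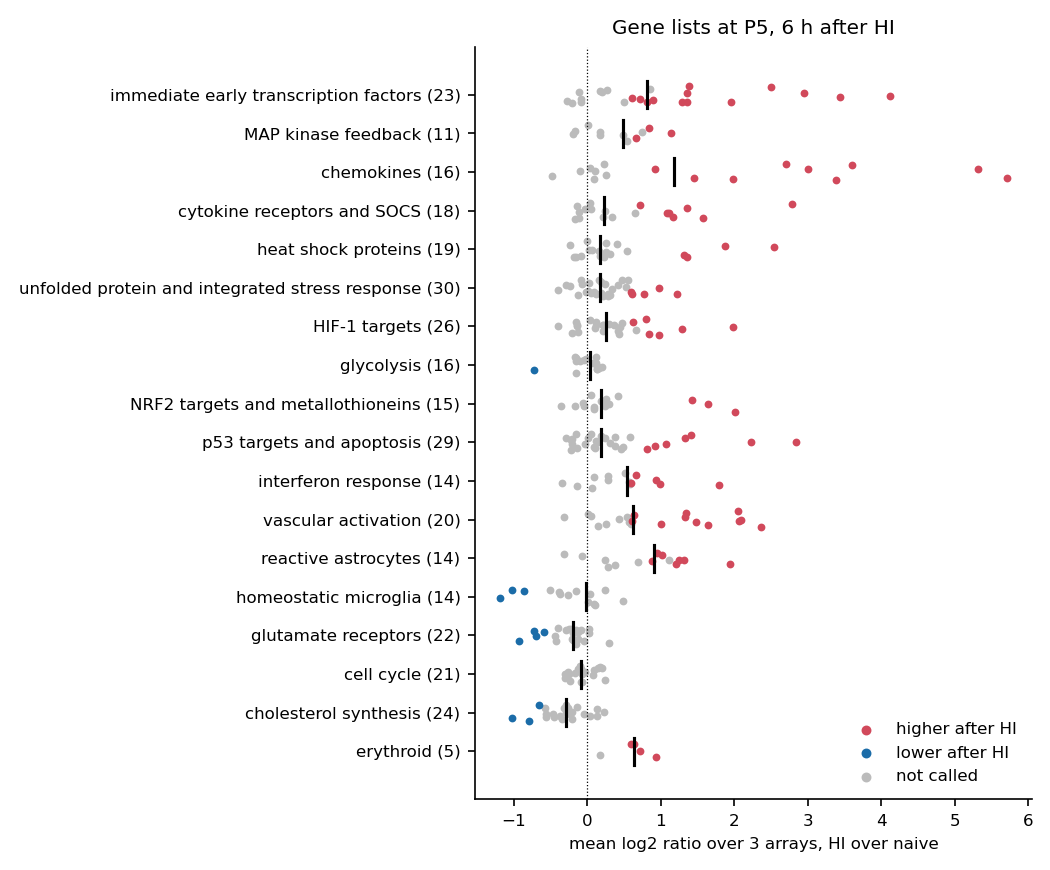
Mean log2 ratio over the 3 arrays for each measured gene of 18 lists (number measured in brackets), red where the plotted probe was called higher, blue where lower and gray where it was not called; each point is the probe of the gene with the largest absolute mean (so Slc16a3, called on another probe, is gray), and the black bar is the list median on the brightest probe of each gene. Chemokines and immediate early factors reach the highest values, and the repressed genes among these 18 lists lie in homeostatic microglia, glutamate receptors, cholesterol synthesis and, for Pfkp, glycolysis.

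The list of p53 and apoptosis genes holds death receptors, growth arrest genes and members of the BCL2 family. Of 29 measured genes 7 rose (2.71% of all genes did) and none fell. Fas, a death receptor, stood at 2.83, 3.16 and 2.54 (7.17-fold, adjusted p = 5.03e-06). The stress sensors Gadd45b (1.98, 2.66 and 2.05) and Gadd45g (1.45, 1.58 and 0.95) rose 4.69-fold and 2.51-fold, and Gadd45a had a mean of 0.82. Pmaip1, which encodes the BH3-only protein NOXA, stood at 1.37, 1.39 and 1.49, and the survival gene Mcl1 at 0.84, 0.97 and 0.92 (adjusted p = 0.000232 and 0.000556). Pmaip1 and Mcl1, which promote and restrain mitochondrial cell death, thus rose on every array. Casp4 stood at 0.87, 1.097 and 1.24 (adjusted p = 0.0309) and lost its call without array 1 or 2 (adjusted p = 0.0891 and 0.133). Cdkn1a, Mdm2, Bax and Ccng1 lay at 0.37, 0.23, -0.21 and -0.22 and were not called.

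Interferons switch on antiviral and antigen presentation genes. Of 35 listed genes 14 passed the signal limit, 5 of these rose and none fell (2.71% of all genes rose), with a median of 0.54. As with chemokines, a member of low naive signal passes only where it is high after HI, and with no signal filter 32 members were tested and 4 were called higher. Gbp2, a guanylate-binding protein, stood at 2.03, 1.61 and 1.74 (3.46-fold, adjusted p = 0.000147). Irgm1 stood at 1.22, 1.04 and 0.69, Irf1 at 1.15, 0.96 and 0.68 and Irf8 at 0.67, 0.86 and 0.46, each lowest on array 3. These calls were less firm. Without array 1 Irgm1, Irf1 and Irf8 had adjusted p of 0.07, 0.0612 and 0.0798, and without array 2 those of Irgm1 and Irf8 were 0.0531 and 0.133. Isg20 (0.60) lost its call without array 2 or 3 (adjusted p = 0.0985 and 0.19). The count of induced members ranged from 1 to 6 over the alternatives. Isg15 and Ifitm3 lay at 0.56 and 0.51 and were not called, and Ifit1, Ifit3, Mx1 and Ifnb1 did not reach the signal limit. An interferon-stimulated response element was found in Gbp2 and Irgm1 of the 5 induced genes, in 7 of 12 measured genes with a promoter in the reference and in 3.44% of all promoters. The sequences are shown with the element in capitals.
Gbp2, chr3:142620413-142620692, plus strand: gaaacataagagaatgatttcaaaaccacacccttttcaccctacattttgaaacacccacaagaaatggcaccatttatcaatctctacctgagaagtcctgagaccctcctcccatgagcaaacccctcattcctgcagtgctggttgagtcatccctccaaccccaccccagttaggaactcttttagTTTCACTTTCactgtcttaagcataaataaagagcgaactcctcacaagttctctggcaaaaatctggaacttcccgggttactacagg
Irgm1, chr11:48871391-48871670, minus strand: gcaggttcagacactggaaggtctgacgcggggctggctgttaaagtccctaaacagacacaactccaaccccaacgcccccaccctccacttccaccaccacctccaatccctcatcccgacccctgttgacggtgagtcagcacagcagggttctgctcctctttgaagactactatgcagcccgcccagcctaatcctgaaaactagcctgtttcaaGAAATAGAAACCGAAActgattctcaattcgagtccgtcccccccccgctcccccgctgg
It begins 59 bases before the start in Gbp2, on the minus strand, and 30 and 24 bases before it in Irgm1, where both matches overlap.

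Injured vessels express adhesion, matrix and clotting genes that are low at rest. Of 20 measured vascular activation genes 11 rose and none fell, beside 2.71% and 1.19% of all genes. None of 9 endothelial and none of 11 mural or fibroblast genes was called. Ccn1, a matrix protein, stood at 2.67, 2.15 and 2.28 (5.15-fold, adjusted p = 3.8e-06). Emp1 stood at 1.96, 2.09 and 2.24 and Esm1, an endothelial proteoglycan, at 2.42, 1.91 and 1.87 (4.27-fold and 4.19-fold, adjusted p = 2.92e-05 and 8.38e-05). Plaur, the urokinase receptor, stood at 1.84, 1.66 and 1.42 (adjusted p = 6.46e-05). Apold1, an endothelial early response gene, stood at 2.30, 1.34 and 0.80 (adjusted p = 0.0195) and had adjusted p of 0.193 and 0.0797 without array 1 and array 2. The junction gene Cldn5 lay at 0.05 and Cdh5 at 0.53 (adjusted p = 0.883 and 0.211).

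Astrocytes become reactive after injury. Of 14 measured genes of reactive astrocytes 7 rose (2.71% of all genes did) and none fell, with a median of 0.91. None of 11 astrocyte identity genes was called. Timp1, a metalloproteinase inhibitor, stood at 2.01, 1.72 and 2.11 (3.85-fold, adjusted p = 2.85e-06). The intermediate filament gene Vim stood at 1.21, 1.21 and 1.18 (2.30-fold, adjusted p = 0.000104), and the hyaluronan receptor Cd44 at 1.37, 1.22 and 1.34 (2.48-fold, adjusted p = 0.00236). S1pr3 rose 2.03-fold. Gfap, the other astrocyte filament, was at 1.40 and 1.26 on arrays 1 and 2 but at 0.16 on array 3 (adjusted p = 0.0343), and lost its call without array 1 or array 2 (adjusted p = 0.238 and 0.212). Lcn2 (1.24) also lost it without array 1 or 2 (adjusted p = 0.058 and 0.0776). Over the alternatives 3 to 10 genes of this list were called. Slc1a2, Aqp4 and Glul lay at 0.43, 0.14 and 0.11.

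Resting microglia are known by purine receptors and other markers that fade on activation. P2ry12, the purine receptor that guides resting microglial processes, stood at -0.96, -0.79 and -1.33, with HI signals of 94.9, 232 and 184 against naive signals of 184, 400 and 462. P2ry12 was 2.03-fold lower (-1.02 ± 0.28, adjusted p = 0.000643). The related receptor P2ry13 stood at -0.82, -1.40 and -1.34 (2.27-fold lower, adjusted p = 2.89e-05). Slc2a5, a fructose transporter of microglia, stood at -0.91, -0.43 and -1.22 (adjusted p = 0.00554) and lost its call without array 3 (-0.67, adjusted p = 0.0821). These were 3 of 14 measured resting markers (1.19% of all genes fell), and the others were not called. Gpr34 lay at -0.51, Tmem119 at -0.27 and Csf1r at 0.03. With normexp background correction P2ry12, P2ry13 and Slc2a5 stood at -0.56, -0.45 and -0.32 and lost their calls. The list median was -0.03 on the brightest probes. Tlr12, a Toll-like receptor, had the lowest mean of the named repressed genes, at -0.89, -1.70 and -1.69, and lost its call without array 3 (-1.30, adjusted p = 0.0845). Among activation genes Lgals3, encoding galectin-3, stood at 1.82, 1.88 and 1.81 (3.57-fold, adjusted p = 4.22e-06). Spp1, encoding osteopontin, stood at 1.20, 1.84 and 1.19 (adjusted p = 0.0064), and without array 2 its adjusted p was 0.0812.

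Leukocyte markers from blood were mostly below the signal limit, which 6 of 18 listed neutrophil and monocyte genes reached. S100a8 and S100a9, which form calprotectin, had means of 1.77 and 1.80 (adjusted p = 0.0324 and 0.0313), and both lost their call without any 1 array, with adjusted p between 0.101 and 0.142 and between 0.0839 and 0.167. Ly6g, Mpo, Ngp, Ltf and Ccr2 were not measured, and Camp and Elane lay at 0.22 and 0.05. None of 5 measured lymphocyte and mast cell genes was called. Erythroid transcripts were higher in the HI pools. Hbb-bs stood at 1.15, 0.97 and 0.68, Hba-a1 at 0.80, 0.79 and 0.55, and Hbb-bt and Alas2 had means of 0.64 and 0.59. Thus 4 of 5 measured erythroid genes were called higher (2.71% of all genes were). Their calls were lost without single arrays, with adjusted p of 0.0953, 0.0834, 0.0845 and 0.0631 without array 1 and of 0.0724, 0.086, 0.106 and 0.0672 without array 2. Pituitary hormone genes swung between arrays. Gh stood at -1.19, 4.00 and -2.10 and Pomc at 0.12, 2.20 and -2.04, neither called. Of 10 choroid plexus genes Aqp1 rose (1.02, 0.90 and 0.96), and Steap1 (0.79) was at its limit with an adjusted p of 0.049, lost without any 1 array, while Ttr lay at 0.42. The part of blood, pituitary or choroid plexus tissue in other results was not tested.

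Glutamate drives excitation, and its excess kills neurons after HI. Of 22 measured glutamate receptor genes 4 fell (1.19% of all genes did) and none rose, with a median of -0.20. Over the alternatives 1 to 5 were called lower and 0 or 1 higher. Grm7, a presynaptic metabotropic receptor, stood at -0.75, -1.08 and -0.95 (1.90-fold lower, adjusted p = 0.00052). Grm8, a receptor of the same group, stood at -0.55, -0.84 and -0.72 (1.63-fold lower, adjusted p = 0.000188). The AMPA receptor subunits Gria1 (-0.94, -0.24 and -0.61) and Gria2 (-0.72, -0.56 and -0.91) had adjusted p of 0.0161 and 0.0118. Both lost their call without array 1 (adjusted p = 0.179 and 0.0627) or array 3 (0.0806 and 0.0964) and stood at -0.43 and -0.58 after subtraction of the dye bias, under the fold limit. Grin1 and Grin2b lay at -0.05 and 0.02. Of 19 GABA genes Gabrb2 fell (-0.48, -0.75 and -0.60, adjusted p = 0.00187), and without array 2 it stood at -0.54 and after subtraction of the dye bias at -0.52, both under the fold limit. Gad1 and Gad2 lay at 0.15 and 0.00. Ntng1, an axon guidance ligand of projection neurons, fell with -0.79, -0.72 and -0.63 (adjusted p = 0.00501), while Bcl11b (-0.65) lost its call without each array in turn (adjusted p up to 0.123) and stood at -0.58 after subtraction of the dye bias. Tubb3 fell with a mean of -0.62, and stood at -0.56 without array 2 and at -0.44 after subtraction of the dye bias, both under the fold limit, while Syn1, Rbfox3 and Snap25 lay between 0.01 and 0.13. None of 21 cell cycle genes, 8 oligodendrocyte precursor genes or 7 oligodendrocyte genes was called. Of 15 progenitor genes only Hes5, a Notch target, fell (-0.58, -0.95 and -0.74, adjusted p = 0.000747). With normexp background correction Grm8, Gria1, Gria2, Ntng1, Bcl11b and Tubb3 lost their calls, while Grm7, Gabrb2 and Hes5 kept them.

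Cholesterol is made within the developing brain, and SREBP2 switches its synthesis genes on together when membrane sterol is low. Of 24 measured genes 3 fell (1.19% of all genes did) and none rose, with a median of -0.29 beside -0.02 over all tested genes. Nsdhl, which removes a methyl group from lanosterol derivatives, stood at -0.95, -1.13 and -1.005 on its called probe (2.04-fold lower, adjusted p = 0.00118), and its brighter probe lay at -0.41. Mvd, the last step of the mevalonate branch, stood at -0.77, -0.78 and -0.86 (1.74-fold lower, adjusted p = 0.000501). Sqle lay at -0.58 and Insig1 at 0.13, and neither was called.

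Stress and hormone signals meet on C/EBP factors and glucocorticoid targets. Of 13 measured genes of C/EBP and related stress factors 4 rose and none fell. Of 15 glucocorticoid targets 5 rose, beside 2.71% of all genes. Cebpd, a factor of both lists, stood at 2.34, 2.06 and 1.88 (4.26-fold, adjusted p = 7.01e-06), and Cebpb at 1.69, 1.496 and 1.52 (2.97-fold, adjusted p = 0.000283). Both were well above 0 on each array. Batf3 and Csrnp1 had means of 1.25 and 1.16. Pdk4 (0.62) lost its call without array 2 (0.50, adjusted p = 0.0941). Mt2, Errfi1 and Lcn2, described above, complete the called glucocorticoid targets. Of 8 clock genes Nr1d1 rose (1.20, 1.21 and 0.40, adjusted p = 0.00286), and of 18 growth factors Gdf15 and Hbegf did, where Hbegf (0.64) stood at 0.58 without array 3, under the fold limit. Of 12 neuropeptide genes none was called.

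Time after HI was compared at P5 by setting the 6 h arrays against those of 3 h and 12 h. Each time point has its own HI and naive pools. A time point always sat at the same place on its slide, so slide position and time cannot be told apart. Of the genes induced at 6 h, 226 were also induced at 3 h (54.1% of the 6 h list and 66.3% of the 3 h list) and 280 at 12 h (67% and 53.1%). Of the genes repressed at 6 h, 21 were also called at 3 h (11.5% and 25.9%) and 66 at 12 h (36.1% and 23.2%). At 6 h and at no other P5 time, 60 genes were called induced and 102 repressed, which is a count of calls and no test of a difference.

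Few genes passed the test of the difference between times. At 3 h 2.77% of genes were called in either direction. From 3 to 6 h limma called 1 gene higher and 6 lower (0.00644% and 0.0387% of 15520 genes, 0.0451% in all), and with the replicate block, which pairs arrays of the same slide, 8 higher and 9 lower (0.0515% and 0.058%). Egr2 fell from 2.85 ± 0.31 to 0.89 ± 0.35 (difference -1.96, adjusted p = 0.0228). Nr4a1 fell from 2.80 ± 0.11 to 1.39 ± 0.08 (-1.41, adjusted p = 0.0382), and the antiproliferative gene Btg2 from 1.40 ± 0.27 to 0.18 ± 0.18 (-1.23, adjusted p = 0.0228). The zinc finger factor Klf6 differed by -0.70. Ahnak, encoding a large scaffold protein, gained 1.48 on 1 probe and was the gene called higher. With the replicate block Mt2 was called higher too, by 0.82. All 7 calls were lost when only the arrays of these groups entered the fit. Without array 1 or 3 of either time no gene was called, and without replicate 2 of the 6 h or the 3 h group 4 and 2 genes were called lower and none higher. Fos stood at 5.67 at 3 h and 4.11 at 6 h, a difference of -1.56 that was not called (adjusted p = 0.197). After 3 h 19 of 23 measured immediate early genes were called higher (2.24% of all), after 6 h 13, after 12 h 9 (3.35%) and after 24 h 3 (1.64%), with medians of 1.81, 0.81, 0.23 and 0.02.

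**Figure D3:**
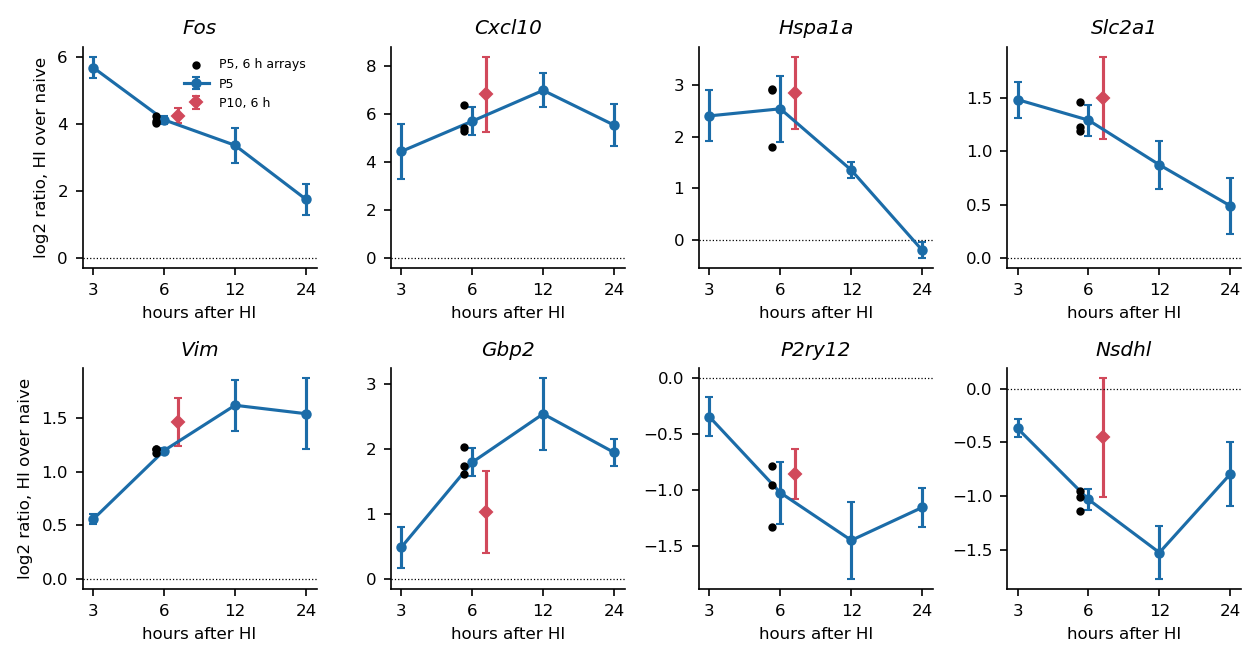
Mean log2 ratio of HI over naive signal ± SD (n = 3 arrays) for 8 genes at P5 by hours after HI (circles and line, hours not to scale), with the single 6 h arrays as black points and the P10 group at 6 h as diamonds. Fos is highest at 3 h, Cxcl10, Vim and Gbp2 are highest at 12 h, and P2ry12 and Nsdhl are lowest at 12 h.

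From 6 to 12 h limma called no gene (0% of 15828 genes), whereas at an unadjusted p under 0.05 and the same fold 74 genes were higher and 68 lower, and with the replicate block 0 and 2 (0% and 0.0126%). The 2 genes were Gabrd and Msantd1, chosen here because the count is small, with differences of -0.71 and -0.62. The median of the interferon list was -0.07 after 3 h, 0.54 after 6 h and 1.01 after 12 h, and 2, 5 and 10 members were called higher. Gbp2 stood at 0.49, 1.79 and 2.53, and Ccl12 at 0.88, 2.71 and 4.21. Cholesterol genes had medians of 0.13, -0.29 and -0.80, with 0, 3 and 19 of 24 members called lower (0.532%, 1.19% and 1.81% of all genes). Insig1, which was called higher at 3 h (0.86), lay at 0.13 at 6 h and was called lower at 12 h (-0.75). The differences of these genes between 6 and 12 h were not called. Hemoglobin moved along, since Hbb-bs stood at 0.37, 0.93, 1.12 and 0.01 at 3, 6, 12 and 24 h, and its part in these patterns was not tested.

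**Figure D4:**
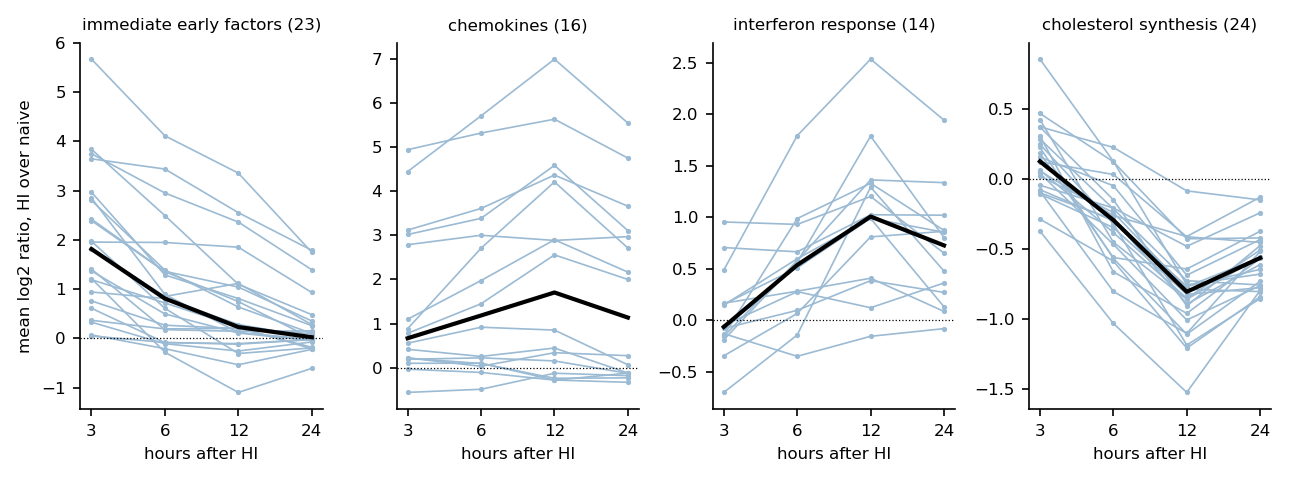
Mean log2 ratio of HI over naive signal (3 arrays per time) of each measured gene in 4 lists at P5 by hours after HI (thin lines, hours not to scale, each panel with its own axis), with the list median in black. The median of immediate early factors falls from 1.81 at 3 h to 0.02 at 24 h, that of chemokines and interferon genes is highest at 12 h, and that of cholesterol genes is lowest at 12 h.

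Age was compared by setting the P5 arrays at 6 h against the P10 arrays at 6 h. P10 pups had the same ligation and hypoxia, and their arrays lie on other slides, so age and slide cannot be told apart. At P10, 1242 genes were called induced and 1111 repressed (7.54% and 6.74% of 16475 genes). Of the genes induced at P5, 269 were also called at P10 (64.4% of the P5 list and 21.7% of the P10 list), and of those repressed 108 were (59% and 9.72%). On the probe that leads each gene, 332 of 340 named genes induced at P5 had a mean above 0 at P10, and 134 of 144 repressed genes one below 0. The difference P10 minus P5 was called for 517 genes higher and 457 lower (5.49% of 17749 genes), with the replicate block for 653 and 679, and for none when only these 6 arrays entered the fit. Leaving out 1 array gave from 177 to 792 genes higher, both without a P10 array (replicates 2 and 1), and from 164 lower without P10 replicate 2 to 626 without P10 replicate 1. Without P5 replicate 2 the counts were 239 and 265.

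Among 484 named genes called at P5 on their leading probe, 34 also differed between ages, beside 5.49% of all genes on any probe. Of those induced at P5, 18 had a lower ratio at P10 and 3 a higher one, and of those repressed at P5, 7 were higher and 6 lower at P10. These genes were chosen by their call at P5, so the split is a description. Among the 18, Crem, a cAMP-responsive factor, stood at 0.89 at P5 and 0.17 at P10 (difference -0.72, adjusted p = 0.00782), and Ifi27l2a, an interferon-inducible gene, at 0.76 and -0.19 (-0.96, adjusted p = 0.0385). Jund, Gem and Nr1d1, a clock repressor, were the 3 higher at P10, by 0.93, 0.97 and 0.89 (adjusted p = 0.00408, 0.0459 and 0.0402). Hes5 and Gria2 were repressed more at P10, with differences of -0.75 and -0.82 (adjusted p = 0.015 and 0.0487). Mvd, repressed at P5, lay at 0.15 at P10 (difference 0.95, adjusted p = 0.005). Of 24 cholesterol genes 7 were higher at P10 than at P5 (2.91% of all genes), among them Stard4 (1.02) and Fdft1 (0.87), and none was lower. Of 23 immediate early genes 6 were higher at P10 and of 11 neuronal genes 6, among them Tubb3 (0.75) and Rbfox3 (0.72). Slc1a2 and Eno1, which were not called at P5, differed by 1.19 and 0.88. Of 16 chemokines Cx3cl1 was called (0.68). The difference of Ccl4 between ages was 0.82 and was not called (adjusted p = 0.316).

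**Figure D5:**
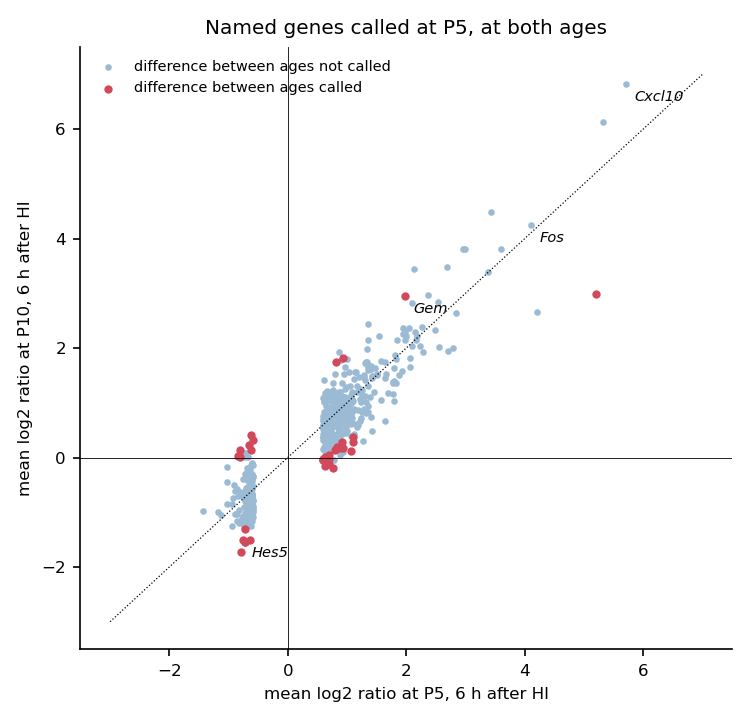
Mean log2 ratio of HI over naive signal 6 h after HI at P5 (horizontal axis) and at P10 (vertical axis) for 484 named genes called at P5, with the line of equal values dotted and genes whose difference between ages was called in red. Most genes lie in the same quadrant at both ages, 332 of 340 induced and 134 of 144 repressed genes.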

How the data were processed

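Per the file headers and the labels, signals were read by the authors with Feature Extraction 10.5.1.1 (Agilent), which subtracted background, and the deposited processed intensity of each dye was Lowess-normalized within its array and not scaled between arrays. The deposited series table holds log10 ratios of Cy5 over Cy3 from the authors for the same arrays. Flagged and control spots were left out, spots of a probe were averaged as log2 ratios, and probes were named through the reference (20832 genes on the array; 12002 probes stayed unnamed). A signal limit of 100 in 1 dye and ratios on at least 2 arrays were required. Ratios were fitted with limma 3.58.1 in R 4.3.3 (lmFit and eBayes) over all 24 HI arrays with 1 coefficient per age and time, each tested against 0, and p-values were adjusted by Benjamini-Hochberg. The lists describe their genes on the brightest probe for medians at 6 h alone and otherwise on the probe with the largest absolute mean at 6 h. That second probe also gave the list medians over time and the list counts of calls at other times and between ages. List counts at 6 h and the shares of all genes rest on any probe of a gene. In this design 32 arrays were grouped by their labels. The code was tested on simulated data. The number of arrays limits the precision.

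Same-numbered P5 arrays share a slide, and their deviations from the group means correlated with those of the 6 h arrays at 0.523, 0.331 and 0.517 (3 h), 0.590, 0.283 and 0.470 (12 h) and 0.535, 0.208 and 0.353 (24 h), so the numbers pair the P5 arrays. P10 numbers do not pair with them (-0.08, 0.08 and -0.00). The alternatives were no signal filter, probes well above background, the brightest probe, only the groups compared, slide as random block, the replicate block, subtracted dye bias from the naive dye-swapped arrays, the series table, flagged spots kept, normexp (offset 50) with loess, the methods' t-test against 0, unadjusted p, and leaving out each array. For normexp the files used here hold median and not mean spot signals, so the former were taken. The list counts under each alternative were added after seeing the data. Their ranges leave out the methods' t-test after Benjamini-Hochberg adjustment.

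The members and lists were chosen with earlier results of these data known. Named genes are the 12 most raised and the 12 most lowered, up to 6 called per list and direction, and the 5 largest differences per contrast and direction; further names were chosen after their values were seen. Promoters came from RefSeq (GRCm38.p6), and motifs were searched on both strands of 32851 promoters, from 250 bases before to 50 after the start. Some genes of the lists are not reported here by name.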

Additional observations from a re-analysis of the deposited data

Results flagged for a closer look

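Results are given here where the HI response differed between groups by the test of the difference (limma, Benjamini-Hochberg). From 3 to 6 h at P5, 7 genes differed. Ahnak gained 1.48 (adjusted p = 0.0287), from 0.71 at 3 h to 2.19 at 6 h. Egr2 differed by -1.96 (adjusted p = 0.0228), Nr4a1 by -1.41 (0.0382), Btg2 by -1.23 (0.0228) and Klf6 by -0.70 (0.0337). Hsd17b7, a cholesterol synthesis gene, differed by -0.74, from 0.18 to -0.56 (adjusted p = 0.0287), and Rps6kl1 by -0.59, from 0.26 to -0.32 (adjusted p = 0.0287). The probes of Ahnak and Hsd17b7 were not the brightest of their genes.

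Between P10 and P5 at 6 h the largest positive differences, as P10 minus P5, were those of Tfap2b (2.01, adjusted p = 0.0454), Adgrl3 (1.87, 0.00397), Miox (1.84, 0.0475), Cbl (1.78, 0.00488) and Ppp1r12b (1.61, 0.00861), none of them called at P5. Adgrl3 stood at 0.08, -0.07 and 0.28 at P5 and at 2.55, 2.05 and 1.29 at P10, without overlap, whereas Miox stood at 3.63, 0.78 and 0.06 at P10. The largest negative differences were those of Naalad2 (-2.44, adjusted p = 0.0233), 1700080O16Rik (-2.42, 0.0255), Smok4a (-2.38, 0.0182), Gm11567 (-2.38, 0.042) and Trim6 (-2.31, 0.0443). All 5 were lowest on P10 replicate 3, where they lay between -2.95 and -4.11. Naalad2, for example, stood at -0.20, -0.78 and -3.78 at P10. The part of that array in these values was not tested. All 10 of these genes lost their call with normexp, where Adgrl3 differed by 0.07, and all 10 with only the 6 arrays compared in the fit.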

How the results depend on the processing

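Direction under the alternatives was followed for 109 genes of the HI effect, 7 genes from 3 to 6 h and 10 genes between P10 and P5, and none reversed. The other genes named in the text were not followed in this way. For the HI effect at P5, 418 genes higher and 183 lower became 227 and 62 with normexp and loess from median signals, and 2 and 0 with the methods' t-test after Benjamini-Hochberg adjustment (407 and 159 unadjusted). The lower count became 307 with no signal filter, 281 with probes well above background and 116 with only the arrays of the groups compared. Without 1 array the counts ran from 293 to 362 higher and from 125 to 213 lower. The replicate block gave 450 and 192. Of 109 named genes 50 lost their call with normexp and 35 without at least 1 array, 69 kept it without each array in turn, and 5 kept it where they had a value but were not tested without array 2 or 3. From 3 to 6 h, 1 higher and 6 lower became 0 and 0 with no signal filter or only the arrays compared, 0 and 2 with probes well above background, 7 and 13 with slide as random block, 8 and 9 with the replicate block, 80 and 83 at an unadjusted p, 0 higher with normexp or the brightest probe, and 0 higher and 0 to 4 lower without 1 array. From 6 to 12 h, 0 and 0 became 1 higher with normexp, 74 and 68 at an unadjusted p, and 2 lower with slide as random block or with the replicate block. For P10 minus P5, 517 and 457 became 0 and 0 with only the arrays compared, 823 and 744 at an unadjusted p, 76 lower with normexp, 653 and 679 with the replicate block, and 177 to 792 higher and 164 to 626 lower without 1 array. Apart from fewer arrays, fewer genes or another limit by construction, the cause was not tested. Low signal limits the ratios: on these arrays 62.3 to 68.8% of probes cleared the program's background test in Cy3.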

Other observations

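Several groups of called genes lay outside the lists and were chosen after their values were seen, so they are given without a test of the group. How many genes of each family were tested is not given, so these members do not stand for their families. Of all genes 2.71% rose and 1.19% fell. Called genes included host genes of small nucleolar RNAs, with means of 1.24 for Snhg5, 1.09 for Snhg17, 1.05 for Snhg1, 1.01 for Snhg15, 0.83 for Snhg16 and 0.65 for Snhg12. Neat1, the RNA scaffold of paraspeckles, stood at 1.82, 1.88 and 1.76 (adjusted p = 0.000618 by limma). Among genes of the cytoskeleton the tubulins Tubb6 and Tuba1c rose with means of 1.55 and 1.17, while Tubb5, a tubulin of growing neurons, stood at -0.70, -0.70 and -0.65 (adjusted p = 0.00013). Lmna, encoding lamin A, stood at 1.16, 1.30 and 1.28 (adjusted p = 4.3e-07) and Flnc, a filamin, had a mean of 1.38. The membrane-binding annexins Anxa2 and Anxa1 rose with means of 1.51 and 0.93. Odc1 and Sat1, enzymes that make and break down polyamines, had means of 1.05 and 1.07.

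Repressed genes included some of synaptic adhesion and guidance. Slitrk1 stood at -0.70, -0.80 and -0.67 (adjusted p = 0.000178), and Slitrk5 and Slitrk6 had means of -0.59 and -0.64. Lrrtm3 and Nrxn3, which join synapses, had means of -0.77 and -0.69, and the cadherins Cdh7, Cdh8 and Cdh12 had means of -0.60, -0.59 and -0.65. Nrxn3 was called on 1 of 5 probes and Lrrtm3 on 1 of 2. Repressed genes of the primary cilium had means of -0.68 for Bbs9, -0.74 for Bbs12, -0.61 for Ttc21b and -0.59 for Rpgrip1l. Immune genes with a wide spread included Lilrb4a (3.29, 0.73 and 2.80) and Ifi202b (3.98, 2.17 and 1.95), in contrast to the microglial receptor Gpr84 (1.85, 2.50 and 2.50).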
